A study of Mus musculus with 11 samples.

Results

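The baseline described here is the expression profile of the striatum in BACHD mice that received only the vehicle, DMSO, and its members are the 4 libraries that the labels name DMSO, out of 11 libraries in the series. The other libraries are 4 with SPI-24 and 3 with SPI-77, inhibitors of the contact between the elongation factor Spt5 and RNA polymerase II. All 11 come from BACHD mice, an FVB/N line that carries a full-length human mutant huntingtin gene on a bacterial artificial chromosome beside its own mouse Htt, so that no library of wild-type animals is among them. All mice were injected under the skin on 4 days and killed 6 h after the last injection. Small punch-size pieces of striatum were taken from brain slices for mRNA sequencing, and the labels give neither dose, age nor sex for a library, nor at which of the sequencing sites it was run. The groups thus share the transgene, the injections and the dissection, and the DMSO libraries show this model under vehicle and not the untreated or the healthy striatum.

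The striatum receives input from cortex and thalamus and dopamine from the midbrain. Most of its neurons are medium spiny neurons, which use GABA and fall into a direct pathway marked by the dopamine receptor Drd1 and an indirect pathway marked by Drd2, and which are lost in Huntington's disease. Fibre bundles with their myelin cross the region, and it borders on the cortex, the thalamus and the lateral ventricle with its choroid plexus. In such bulk pieces fewer cells of a type and less RNA per cell cannot be told apart.

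Values are normalized read counts, which are reads divided by a size factor of the library, and the 4 values of a gene are always given in the order DMSO 1, DMSO 2, DMSO 3 and DMSO 4. The libraries held 13.96 M, 16.5 M, 13.9 M and 33.8 M reads, and 19739 to 20313 genes were detected in each. Of 20957 genes, 18668 were above 0 in all 4 libraries and 126 were at 0 in all 4. A mean of at least 50 was reached by 12813 genes, of at least 1000 by 3495 genes and of at least 10000 by 156 genes, and the median of the means was 136.5. Log2 values of genes with a mean of at least 50 correlated between libraries with Pearson's r from 0.930 (DMSO 1 with DMSO 4) to 0.978 (DMSO 2 with DMSO 4), across genes, which are not independent replicates. Between DMSO 1 and DMSO 4 1671 genes lay at least 2-fold apart, and between DMSO 2 and DMSO 4 283.

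Counts were concentrated in few genes. The 10 highest genes held 8.10% ± 1.38 of the counts (SD, n = 4), the 100 highest 21.3% ± 1.03 and the 1000 highest 51.9% ± 0.971. Of the 100 highest, 96 were protein-coding, 2 were the mitochondrial ribosomal RNAs and 2 were long noncoding RNAs, Meg3 and Bc1. Of the 100, 17 belonged to the synaptic lists described below, 16 to those of energy supply and ion pumping and 6 to those of myelin, and 47 to none of the 38 lists.

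**Figure D1:**
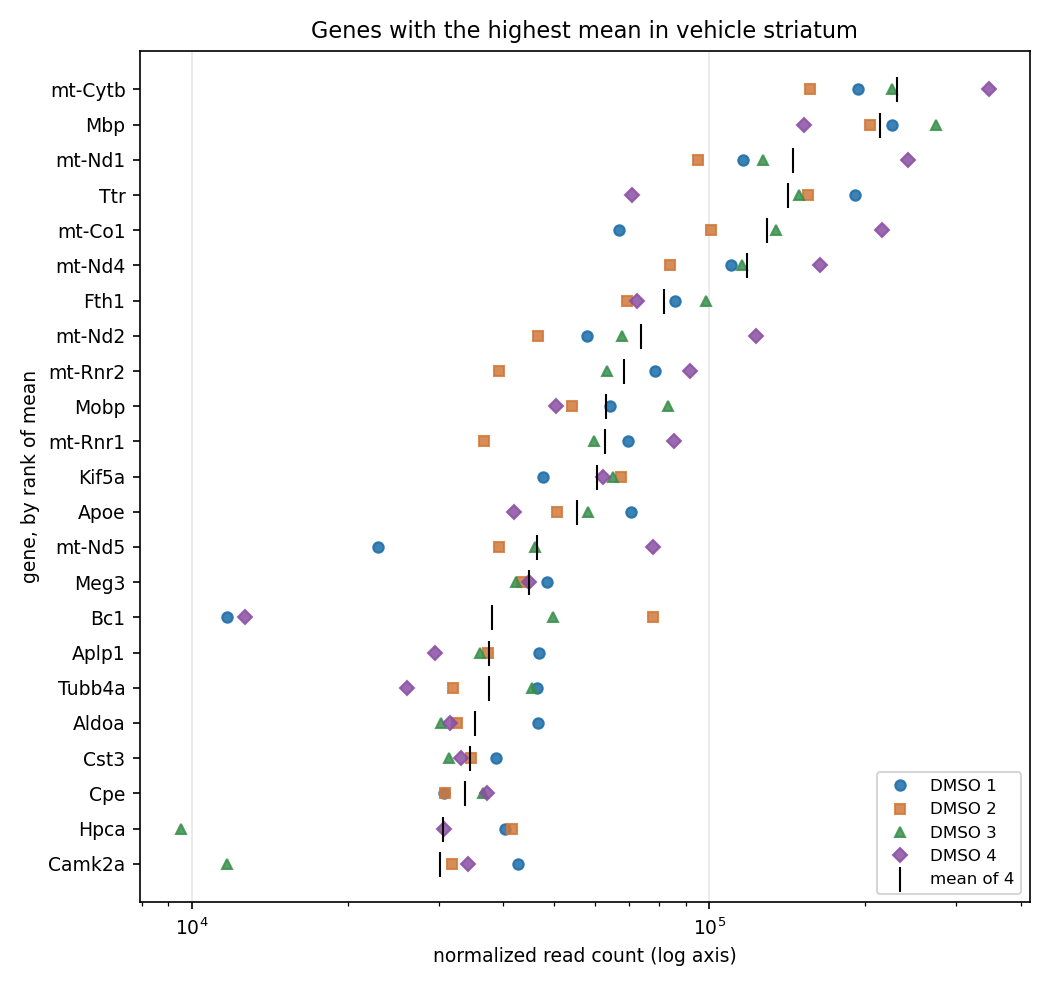
Normalized read counts (log axis) of 23 of the 25 genes with the highest mean in the 4 DMSO libraries, with a symbol for each library and a bar for the mean. Mitochondrial genes are highest in DMSO 4, Bc1 splits the libraries into 2 high and 2 low, and Hpca and Camk2a are low in DMSO 3.

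Among the genes present, the highest mean was that of mt-Cytb, the cytochrome b of respiratory complex III, with 193472, 156413, 225215 and 347235. DMSO 4 was the highest and DMSO 2 the lowest library. Of the complex I subunits, mt-Nd1 had 116165, 94916, 126909 and 241769 and mt-Nd4 109861, 83852, 115791 and 163276. The complex IV subunit mt-Co1 had 67021, 100756, 134349 and 215417. All 7 protein-coding mitochondrial genes of the table were among the 100 highest genes, and all 7 were highest in DMSO 4. Together they held 3.67%, 3.52%, 4.82% and 7.65% of the counts of the 4 libraries, a mean of 4.91% ± 1.91 (SD, n = 4). Other protein-coding mitochondrial genes, among them mt-Co2 and mt-Co3, are absent from the deposited genes, so this share covers these 7 only. Nuclear-encoded subunits of oxidative phosphorylation followed a different order, with 1.95%, 1.46%, 1.87% and 1.54%, lowest in DMSO 2 and highest in DMSO 1. Among them Atp5b, the beta subunit of ATP synthase, averaged 26780.0 ± 3553 (SD, n = 4). Of glycolysis, Aldoa, an aldolase, had 46686, 32586, 30274 and 31552 and Eno2, the neuronal enolase, 27655, 23634, 22686 and 21629.8. DMSO 1 was the highest library for both genes. The glycolysis list held 0.992% ± 0.126 of the counts, and the list of sodium, calcium and proton pumps 1.001% ± 0.0810.

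Myelin was the second large group. Mbp, myelin basic protein, had 225706, 204328, 273402 and 152335 and was second in rank of the mean. Mobp, a further structural protein of central myelin, had 64114, 54284, 83304 and 50457. DMSO 3 was the highest and DMSO 4 the lowest library for both genes. The 10 myelin protein genes held 2.55% ± 0.583 of the counts and the 15 oligodendrocyte markers, which share several genes with them, 2.74% ± 0.621. Of these 15 markers 11 were highest in DMSO 3 and 12 lowest in DMSO 4. Secreted and lipid-carrying products of glia held 1.43% ± 0.154, with Apoe, the main lipid carrier of the brain, at 55385 ± 12166, the protease inhibitor Cst3 at 34455 ± 3144 and the carboxypeptidase Cpe at 33766 ± 3543 (SD, n = 4).

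Synaptic genes held a comparable share. The list of postsynaptic density and calcium signalling genes held 1.85%, 2.11%, 1.23% and 2.09% of the counts, lowest in DMSO 3, and the list of vesicle release genes 1.73% ± 0.161. Camk2a, the alpha subunit of calcium/calmodulin-dependent kinase II, had 42696, 31797, 11714 and 34190.0. Hpca, the calcium sensor hippocalcin, had 40279, 41573, 9512 and 30732. DMSO 3 lay apart below the other libraries for both genes. The calmodulin gene Calm3, at 30062, 27822, 25704 and 29682, was also lowest in DMSO 3, by a much smaller margin. Of vesicle proteins, Snap25 had 22236, 21047, 20654 and 36314 and Vamp2 25752, 22861, 22297 and 21833, and both are parts of the SNARE complex of transmitter release. The axonal motor Kif5a averaged 60630.1 ± 8891 (SD, n = 4).

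**Figure D2:**
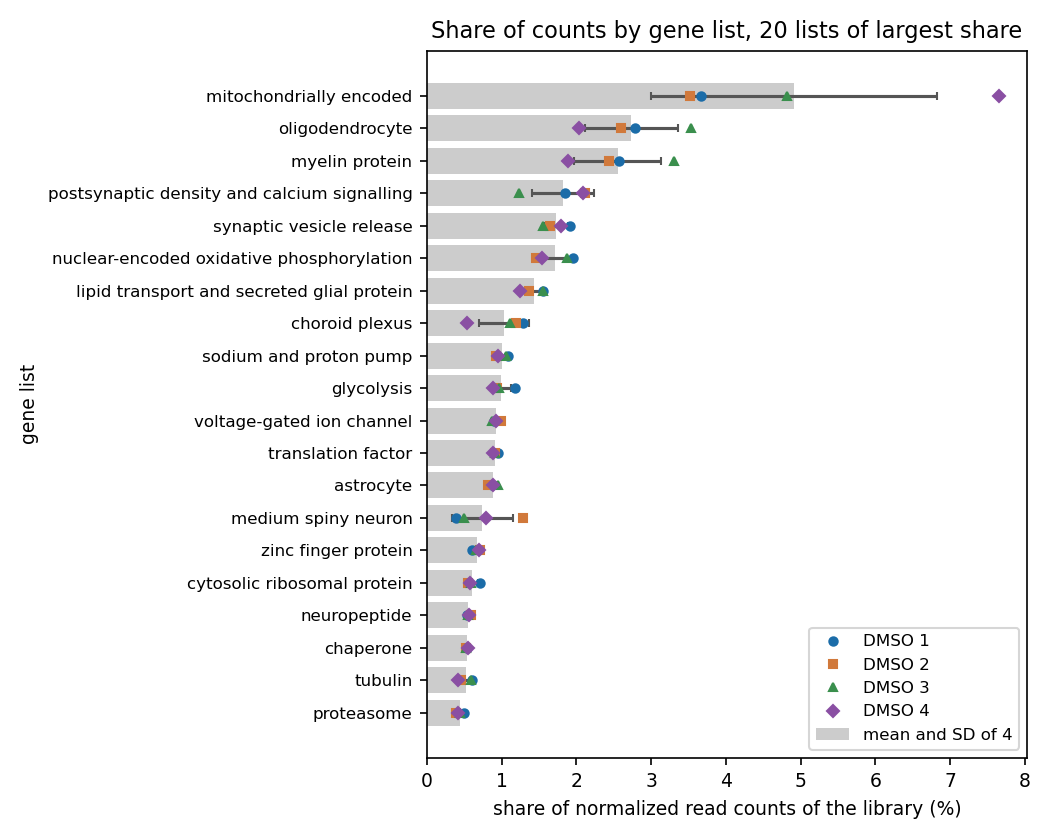
Share of the normalized read counts of each library (%) for the 20 gene lists of largest share, with grey bars for the mean and SD of the 4 DMSO libraries and a symbol for each library. The 7 mitochondrially encoded genes present held 4.91% ± 1.91, oligodendrocyte genes 2.74% ± 0.621 and medium spiny neuron genes 0.743% ± 0.404. Lists may share genes.

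Striatal markers were present in all 4 libraries. All 27 markers of medium spiny neurons had a mean of at least 50, and together they held 0.386%, 1.29%, 0.498% and 0.796% of the counts. Ppp1r1b, the gene of DARPP-32, through which dopamine acts on protein phosphatase, was the only marker among the 100 highest genes, with 10589, 35156, 11662 and 19094. Penk, the enkephalin precursor of the indirect pathway, had 4775, 18299.9, 7286 and 12811, and Gng7, a G protein gamma subunit that couples receptors to adenylyl cyclase, 7482, 20481, 7299.6 and 11686. The order of the libraries was the same for Ppp1r1b and Penk, with DMSO 2 highest and DMSO 1 lowest. Genes of GABA synthesis and of interneurons were also found. Gad1, the GABA-forming enzyme, averaged 7902 ± 1319 and Sst, the somatostatin gene of an interneuron class, 7028 ± 747. Markers of other regions were present beside them. Slc17a7, the vesicular glutamate transporter of cortical neurons, had 26311, 14008, 4892 and 21371, and Slc17a6, that of thalamic neurons, 839, 161, 1464 and 337. Ttr, the transthyretin gene whose brain source is the choroid plexus, had 190915, 155337, 149205 and 70855 and was among the 10 highest genes by mean. The choroid plexus list held 1.29%, 1.18%, 1.11% and 0.537% of the counts, and 10 of its 11 genes were lowest in DMSO 4. Of the 7 midbrain dopaminergic markers in the table, 2 had a mean below 10, among them Slc6a3, the dopamine transporter, at 4.6, 1.85, 8.82 and 2.34. The highest of the 7 was Aldh1a1, an aldehyde dehydrogenase, at 483 ± 191, and Th, the rate-limiting enzyme of dopamine synthesis, had 79.3, 134, 99.3 and 121.

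The 2 huntingtin entries differed little between libraries. Human HTT, the transgene, had 4679.9, 5546, 4654 and 4655, and mouse Htt (chromosome 5, 34761740 to 34912534, GRCm38) had 1990.1, 1976, 1846 and 1903. DMSO 2 was the highest library for the human entry, and the log2 SD was 0.13 for HTT and 0.05 for Htt. No exon length was at hand for the human entry, so that the levels of the 2 genes are not compared. Supt5, which encodes Spt5, had 3379, 3076, 2485 and 2479, and its partner Supt4a 447, 336, 418 and 354.

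Per kilobase of exon, a scale that takes the length of a gene's exons into account, the order changed at the top. The length was that of all annotated exons together, which can exceed that of any transcript. For Fth1 it was 3469 bases, against 2062 in the longest transcript. Bc1, a short cytoplasmic RNA of neurons, came first with a mean of 226168 normalized counts per kilobase, ahead of mt-Cytb with 201559, mt-Nd1 with 151452 and Ttr with 119374. This first place rested on DMSO 2 and DMSO 3, since per kilobase Bc1 had 69713, 463215, 296382 and 75362 and mt-Cytb 169119, 136724, 196866 and 303527. Without DMSO 2 the mean per kilobase was 147152 for Bc1 and 223171 for mt-Cytb, and without DMSO 3 it was 202763 and 203123, so that mt-Cytb came ahead in both cases. Of the 10 highest genes on this scale, 8 were mitochondrial. Mbp, second by count, had 25262 per kilobase. The selenoprotein gene Selenow had 26832 and Cst3 27216. Between the ranking by count and that per kilobase, 67 of the 100 highest genes were shared. Bc1 reaches this place because its 168 bases are set against a mean count of 37996 ± 31926 (SD, n = 4). Its sequence (GENCODE M21, GRCm38, chr7:144914470-144914637, plus strand) is shown because it holds an internal run of 23 A, in capitals, beside its short length, in libraries made from polyadenylated RNA:
Bc1: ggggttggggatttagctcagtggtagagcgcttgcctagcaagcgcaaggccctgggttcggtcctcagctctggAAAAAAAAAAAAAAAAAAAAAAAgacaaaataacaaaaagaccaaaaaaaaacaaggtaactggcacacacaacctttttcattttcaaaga
The run spans bases 77 to 99, and 41.7% of all its bases are A. Bc1 had 11712, 77820.1, 49792 and 12661, high in DMSO 2 and DMSO 3 and low in DMSO 1 and DMSO 4.

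The spread between libraries was measured as the SD of log2(normalized count + 1) over the 4 libraries. Among the 12813 genes with a mean of at least 50 its median was 0.27 and its 90th percentile 0.61. An SD of at least 1 was found for 236 genes (1.84%), and the highest library exceeded the lowest by 2-fold or more for 2771 genes (21.6%). Counting error alone gives a median SD of 0.066, and for 8647 genes (67.5%) the SD was over 3 times that of counting. In the same genes the median SD was 0.26 in the SPI-24 libraries and 0.20 in the SPI-77 libraries.

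**Figure D3:**
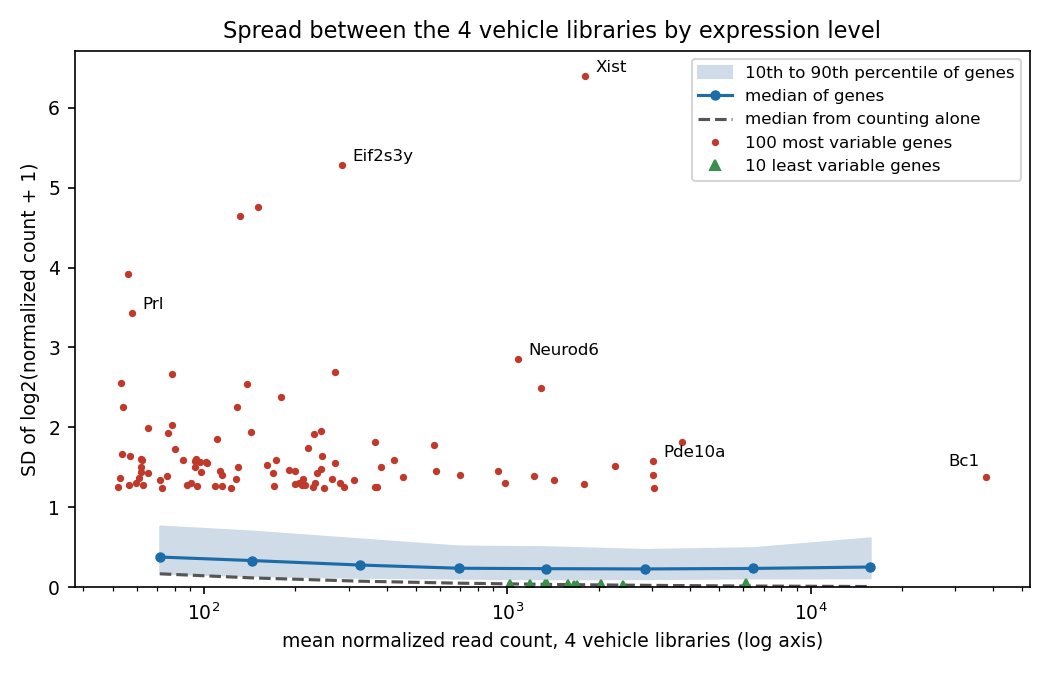
SD of log2(normalized count + 1) over the 4 DMSO libraries against the mean normalized read count (log axis). The band holds the 10th to 90th percentile of genes, the solid line is the median, the dashed line the median SD that counting alone gives, red points are the 100 most variable genes and green triangles the 10 least variable. Xist lies at an SD of 6.39, and the median falls from 0.38 in genes with a mean of 50 to 100 to 0.24 in genes with a mean of 500 to 1000.

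At the stable end, the 10 genes with the smallest SD among those with a mean of at least 1000 had an SD of 0.02 to 0.04. Stard7, a lipid transfer protein, had 1661, 1671, 1624 and 1683, and its SD of 0.02 was below the 0.034 that counting gives. Cops7a, a subunit of the COP9 signalosome, had 2369, 2460.0, 2416 and 2389, and Drosha, the nuclease that cuts primary microRNAs, 1738, 1678, 1681 and 1686. The spread was below that of counting in these 3 genes and in Cpsf7, Stau1, Prelid1, Tgfbrap1 and Dop1b, and above it in Fyn and Ptprs, the latter with 0.037 against 0.018. By list, the median SD was 0.16 for chaperones, 0.19 for the proteasome and 0.21 for Spt5 and Pol II elongation, against 0.27 for all genes, and none of their 22, 46 and 18 genes lay in the top 10% of the SD over all genes. The mean log2 level of the elongation list differed by 0.10 between its highest and its lowest library.

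The 100 most variable genes had an SD of 1.24 to 6.39, with a median of 1.46, and the next gene outside lay at 1.24. They were sorted by the widest gap in their 4 ordered values. In 37 DMSO 3 alone was low, in 24 DMSO 1 alone was low, in 17 DMSO 1 and DMSO 3 were high, in 11 DMSO 2 and DMSO 4 were high, and 11 showed another split. These genes were chosen for their spread, so the values that follow are descriptions with no test. In libraries that did not enter the choice, 70 of the 100 lay in the top 10% of the SD within the SPI-24 group and 53 within the SPI-77 group, against 10% of all genes.

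Sex-linked genes had the widest spread. Xist, the noncoding RNA of X inactivation in females, had 3714, 0.930, 3511 and 0.470. The Y-linked genes Eif2s3y (0, 506, 0 and 632) and Ddx3y (0, 294, 0 and 309.7) had the reverse pattern, and Kdm5d and Uty, also Y-linked, were at 0 in DMSO 1 and DMSO 3 as well. DMSO 1 and DMSO 3 thus had the transcripts of females and DMSO 2 and DMSO 4 those of males. For other genes that split along the same pairs, the sex of the mice and other differences between these pairs cannot be told apart. The SD of these genes also depends on the pseudocount, since libraries at or near 0 enter it.

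The thalamic markers followed this same split. Of the 16 genes on this list 14 lay in the top 10% of the SD over all genes. The lists were chosen with earlier results of these data known, so such counts by list, here and elsewhere, are descriptions with no test. Prkcd, a protein kinase C abundant in thalamic relay neurons, had 3395, 1171, 6707 and 804. Tnnt1, a troponin that also marks thalamic neurons, had 1106, 115, 954 and 126, and Ramp3, a receptor-modifying protein, 2627, 726, 3271 and 549. DMSO 1 and DMSO 3 were high and DMSO 2 and DMSO 4 low, with no value of one pair inside the range of the other. Gbx2, a homeobox factor needed for thalamic development, had 35.6, 11.1, 153 and 14.04, high in DMSO 3. Of the 16 markers 15 were highest in DMSO 3. The mean log2 level of the list was 9.65, 8.23, 10.4 and 8.28.

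Markers of cortical excitatory neurons marked DMSO 3 as low. Neurod6, a transcription factor of cortical projection neurons, had 1557, 1047, 26.5 and 1702, and its relative Neurod2 had 2644, 1023, 52.9 and 1447. Emx1, which specifies the cortex in development, had 219, 112, 12.1 and 228, and Tbr1, a factor of deep-layer neurons, 272, 341, 39.7 and 812. In each of these genes DMSO 3 lay several-fold below the lowest of the other libraries. Of the 13 genes on the list 11 were lowest in DMSO 3, whereas Cux2 and Rorb were highest in DMSO 3. On this list 9 genes lay in the top 10% of the SD, and the mean log2 level was 9.34, 9.26, 7.32 and 9.999. Synaptic genes of high level that were low in DMSO 3, Camk2a and Hpca above, moved with these markers, as did Nrgn, which encodes the calmodulin-binding protein neurogranin, at 18429, 20941, 5194 and 21429. The part of cortical tissue in those values was not tested. Prl, the pituitary hormone prolactin, was found in DMSO 3 at 226 and at no more than 3.28 elsewhere. Pmch, the melanin-concentrating hormone gene of the hypothalamus, had 1.15, 0, 99.3 and 0.940, again with DMSO 3 high. The list of hypothalamic markers did not follow Pmch as a whole. Of its 12 genes present, 5 were highest in DMSO 3 and 4 in DMSO 1. The mean log2 level of this list was 7.11, 6.88, 6.96 and 6.54. It covers only the 5 genes with a mean of at least 50. Pmch lies below that mean, so this level leaves it out and does not bear on its pattern.

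**Figure D4:**
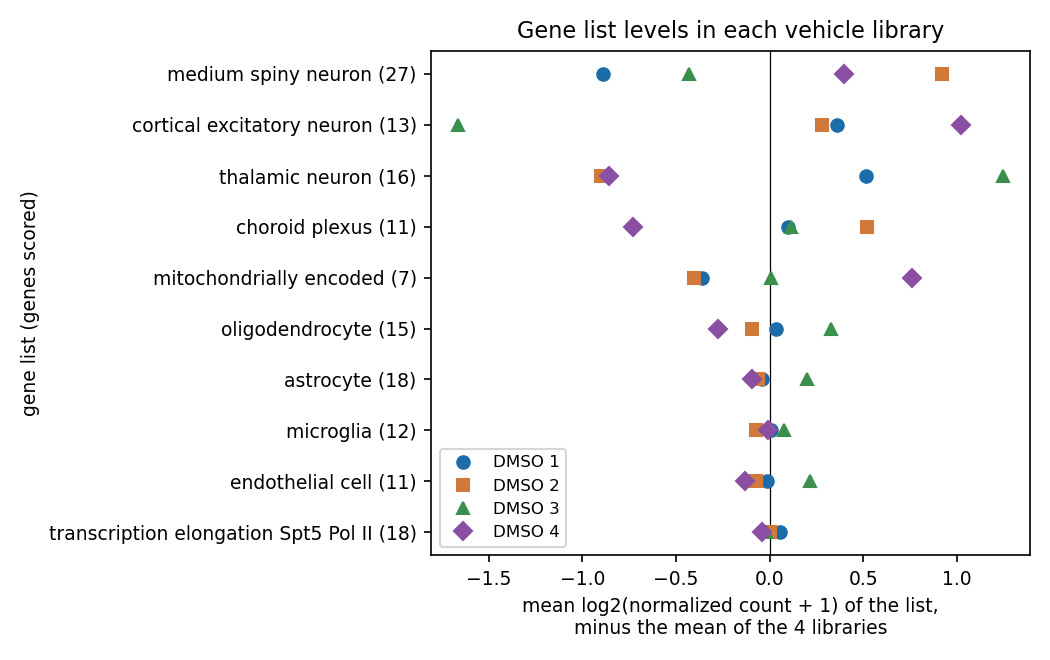
Mean log2(normalized count + 1) of the genes of each list in each DMSO library, minus the mean of the 4 libraries, with the number of genes scored in parentheses. The cortical list is lowest in DMSO 3, at 7.32 against a mean of 8.98, the thalamic list is above 0 in DMSO 1 and DMSO 3, the medium spiny list is highest in DMSO 2, and the microglia and elongation lists stay close to 0.

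The medium spiny markers themselves varied. Of the 27 genes 23 lay in the top 10% of the SD, 25 were highest in DMSO 2, and 22 were lowest in DMSO 1 and the other 5 in DMSO 3. The mean log2 level was 10.005, 11.8, 10.5 and 11.3, a difference of 1.80 between DMSO 2 and DMSO 1. Drd1 had 247, 1505, 475 and 1296, and Gpr6, an orphan receptor of the indirect pathway, 122, 755, 225 and 444. Pde10a, the phosphodiesterase that breaks down cyclic nucleotides in these neurons, had the widest spread of the list, with 477, 5955, 1975 and 3670.4 and an SD of 1.58. The direct-pathway gene Drd1 and the indirect-pathway genes Gpr6 and Penk were each highest in DMSO 2 and lowest in DMSO 1. In contrast, the mean log2 levels of the astrocyte, microglia and endothelial lists differed by 0.29, 0.15 and 0.35 between their highest and lowest libraries. Within the microglia list P2ry12, a purine receptor of resting microglia, was an exception with 108, 276, 239 and 450.1, lowest in DMSO 1.

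The genes that were low in DMSO 1 alone were of low GC content. Pik3c2a, a class II phosphoinositide 3-kinase, had 4.6, 121, 49.6 and 86.1. Pde10a belongs to the same 24 genes. The longest annotated transcripts of these 24 had a median GC content of 41.3% and a median length of 4833 bases, against 50.1% and 3534 bases for all genes with a mean of at least 50. The 11 genes that were high in DMSO 2 and DMSO 4 were close to them, with 43.8% and 4715 bases. Among these 11 are the Y-linked Eif2s3y, Ddx3y, Kdm5d and Uty, at 36.4%, 36.1%, 43.8% and 35.8% GC. Across the transcriptome, a trend with GC content was seen in DMSO 1 and DMSO 4. When all genes were divided into 10 bins of GC content, the median log2 difference of DMSO 1 from the median of the other libraries rose from -0.53 in the lowest bin to 0.29 in the highest, and that of DMSO 4 fell from 0.49 to -0.27. DMSO 2 and DMSO 3 stayed between -0.05 and 0.04 in every bin. Of the 1668 genes at least 2-fold apart between DMSO 1 and DMSO 4 that had a GC value, 1316 were lower in DMSO 1, with a median GC content of 42.5%, and 352 were higher, with 55.0%. The bins of transcript length gave a smaller range for DMSO 1, from 0.33 in the shortest to -0.30 in the longest, while DMSO 2 went from -0.19 to 0.14 with length. After each library was centred within the GC bins, an alternative chosen after seeing the data, the median SD was 0.24, and 80 of the 100 most variable genes stayed among the 100. All 37 genes with DMSO 3 alone low stayed, but only 9 of the 24 with DMSO 1 alone low. Pde10a kept an SD of 1.55 after centring.

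**Figure D5:**
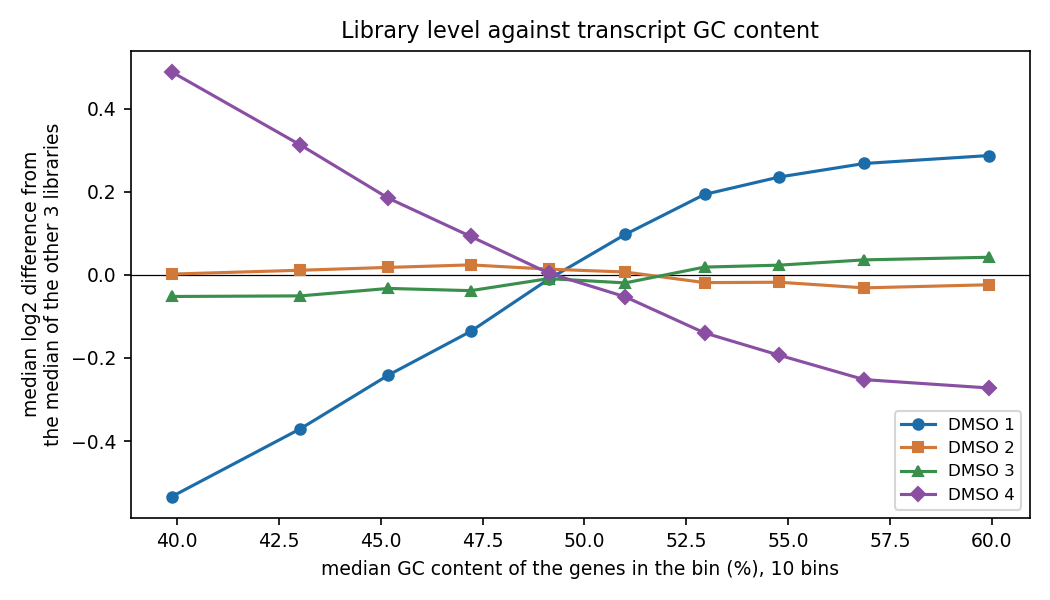
Median log2 difference of each DMSO library from the median of the other 3, for 10 bins of genes by GC content of the longest transcript (%). DMSO 1 rises from -0.53 to 0.29 with GC content, DMSO 4 falls from 0.49 to -0.27, and DMSO 2 and DMSO 3 stay near 0.

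Promoters were compared as a further property that the ranking had not used. RefSeq promoter sequences (GRCm38.p6) matched by symbol for 75 of the 100 most variable genes, 62 of the 100 highest genes and 9948 genes with a mean of at least 50. The TATA box letters TATAAA on the strand of the gene, 40 to 15 bases before the start, were found in 5 of the 75, which is 6.67%, in 2 of the 62 highest genes, which is 3.23%, in 1.10% of all genes with a mean of at least 50, and in 2.22% of all 27025 promoters. The CpG count in the 250 bases before the start had a median of 11 in the most variable, 12.5 in the highest and 16 in all genes with a mean of at least 50. The letters CAGATG were also sought in these 250 bases, on either strand. They were found in 12% of the most variable and 4.84% of the highest genes. The share was 9.65% in all genes with a mean of at least 50 and 14.5% in all promoters. TATAAA was more frequent among the variable genes than among all genes. Shown are therefore the 60 bases before the start of the 5 variable genes with TATAAA, with these letters in capitals. They are Prl (chr13:27057510-27057569, plus strand), Tnnt1 (chr7:4515976-4516035, minus strand), Slc26a4, an anion exchanger (chr12:31559985-31560044, minus strand), Gabrb2, a GABA receptor subunit (chr11:42420380-42420439, plus strand), and Vip, vasoactive intestinal peptide (chr10:5639158-5639217, plus strand):
Prl: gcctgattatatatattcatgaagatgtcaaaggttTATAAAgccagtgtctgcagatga
Tnnt1: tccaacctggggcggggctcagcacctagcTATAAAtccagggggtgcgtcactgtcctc
Slc26a4: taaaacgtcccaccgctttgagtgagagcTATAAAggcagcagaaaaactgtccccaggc
Gabrb2: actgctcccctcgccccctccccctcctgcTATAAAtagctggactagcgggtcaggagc
Vip: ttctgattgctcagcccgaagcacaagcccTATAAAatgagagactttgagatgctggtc
Their patterns differed. Prl was high in DMSO 3, Tnnt1 in DMSO 1 and DMSO 3, and Vip, with 54.0, 51.9, 30.9 and 242, in DMSO 4. A match of these letters is a description and not a site that was tested.

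The genes that make up this baseline were also compared between vehicle and compound. They were tested with limma in a fit over all 16768 genes with a value of at least 10 in at least 3 libraries, and called where the p adjusted by Benjamini-Hochberg was below 0.05 and the groups differed at least 2-fold. The 100 highest and the 100 most variable genes were chosen by DMSO values that also enter this test. Their calls, p-values and median differences are therefore given as a description. Against SPI-24, 0 of the 100 highest and 0 of the 99 tested most variable genes were called, where 0% of all genes were called. Over all genes there were 625 at an unadjusted p below 0.05 with limma, 524 with edgeR and 834 with DESeq2, and each of these tools called 0 genes. When 1 library was left out, limma gave 257 to 1428 such genes, and called 2 genes without SPI-24 1 only. The 1428 were without SPI-24 4, where 16263 genes were detected, against 19390 to 19912 in the other SPI-24 libraries. Against SPI-77, 2 of the 100 highest genes were called, where 6.4% of all genes were called, and the median log2 difference was 0.28 over the 100 and -0.01 over all genes tested. Syp, the vesicle protein synaptophysin, had 30322, 16232, 24133 and 18867 with DMSO and 38797, 41205 and 51784 with SPI-77 (log2 difference 1.002 ± 0.23 SE, adjusted p = 0.0205, limma). Fbxl16, an F-box protein gene, had 13089, 29089, 11332 and 20206 with DMSO and 8819, 8675 and 7440 with SPI-77 (-1.05 ± 0.31 SE, adjusted p = 0.0369, limma). Syp lay at the 2-fold limit and was not called by edgeR, with a log2 difference of 0.96, or by DESeq2, with 0.97, whereas both called Fbxl16. Of the 99 most variable genes tested, 3 were called higher and 13 lower, where 188 of all 16768 genes were called higher and 885 lower. Pde10a had 170, 200 and 116 in SPI-77 against 477 to 5955 in DMSO. Tnnt1 had 3033, 5065 and 6085 against 115 to 1106. The groups were also unbalanced in sex-linked transcripts. Xist was at 4.00, 7.70 and 1.79 and Eif2s3y at 353, 355 and 186 in the SPI-77 libraries, so that all 3 had the transcripts of males, as had 2 of the 4 DMSO libraries and 1 of the 4 SPI-24 libraries. Beside these values stand also the marker lists, of which the medium spiny level was 8.23 to 8.70 in SPI-77 and 10.005 to 11.8 in DMSO, and the thalamic level 9.94 to 10.5 and 8.23 to 10.4. The part of sex and of these markers in the called genes was not tested. The number of calls changed with the libraries kept. None of the 18 was called when DMSO 2, DMSO 4 or the SPI-77 libraries 1 or 3 were each left out. In each of these runs 0 of all genes were called, with a lowest adjusted p of 0.0535 to 0.0831 (limma). Between 4277 and 4892 genes still had an unadjusted p below 0.05 (limma). Over these runs the log2 difference ranged from 0.86 to 1.09 for Syp and from -0.80 to -1.10 for Fbxl16. The part of the smaller number of libraries in this loss of calls was not tested. Without SPI-77 2 there were 4 calls, and without DMSO 1 there were 35 calls among the 199 genes.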

How the data were processed

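Methods and processing notes state that the authors trimmed reads with cutadapt, aligned them to GRCm38 by STAR using Ensembl genes, dropped those with more than 1 position, which lowers genes with close copies, and counted reads per gene with HTSeq (no versions stated). The deposited signal is a normalized count, reads divided by a DESeq2 size factor. Values were whole multiples of a step per library (tolerance 0.1 step, 100% in each library), so reads were recovered. The authors' columns of fold changes and p-values were not used. Names, coordinates and exon lengths come from GENCODE M21, which matched 20930 of 20957 identifiers. The labels give groups and replicate numbers and call the libraries biological replicates, and the lowest chi-square per gene between DMSO libraries was 44.1.

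Named genes were the 25 highest, the 10 highest per kilobase, the 25 most and 10 least variable, 3 highest and 3 most variable members of each of 38 lists, and HTT, Htt, Supt5, Supt4a, Xist and Ddx3y. Other named genes (Selenow, Syp, Fbxl16, Slc26a4, Gabrb2, Cux2 and Rorb) were chosen after their values were seen, and some under the rule are not reported here. Members and lists were chosen with earlier results of these data known. Groups were compared with limma 3.58.1 (R 4.3.3) on log2(normalized count + 1), with all 11 libraries in 1 fit. On this scale the change of a gene with few counts is understated. Alternatives were edgeR 4.0.16 and DESeq2 1.42.0 on recovered reads, pseudocount 8, no filter, a replicate block and leaving out each library. Counting errors do not cover PCR duplicates. The limma fit and the spread ranking were run on simulated counts with large planted changes and otherwise the same dispersion for every gene. Those counts had no trend with GC content, so they check the steps and not the results in these data.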

Additional observations from a re-analysis of the deposited data

Results flagged for a closer look

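Among 64 values (shares of counts by list, reads per library and the 25 highest genes), 3 had a library whose gap to the nearest other took an unusually large part of the range of the 4 (Dixon's criterion at the 95% level), where chance flags about 1 in 20. The share of the huntingtin list was 0.0416%, 0.0491%, 0.0425% and 0.0415%, with DMSO 2 apart and high by 0.874 of the range. The reads were 13.96 M, 16.5 M, 13.9 M and 33.8 M, with DMSO 4 apart and high by 0.867. Aldoa, a glycolytic aldolase, had 46686 in DMSO 1 against 30274 to 32586 in the others, a gap of 0.859.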

How the results depend on the processing

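The 100 highest genes shared 67 members with the ranking per kilobase, 99 with that by median, 100 with that by CPM and 93 to 96 when 1 library was left out. Their share of counts was 17.3% without the mitochondrial chromosome and 20.97% to 21.8% when 1 library was left out. The 100 most variable genes depended more on the settings. They shared 34 members with the ranking at a minimum mean of 10, 44 at 200, 63 by the coefficient of variation and 45 (without DMSO 3) to 86 (without DMSO 2) when 1 library was left out, with 64 without DMSO 1 and 74 without DMSO 4, while pseudocount 8, edgeR dispersion and GC centring gave 90, 88 and 80. The median SD was 0.26 on CPM and 0.22 to 0.29 when 1 library was left out. Of the 199 highest or most variable genes, 0 were called against SPI-24 under every alternative run. Against SPI-77 18 were called with limma, 36 with DESeq2, 20 with edgeR, 18 with pseudocount 8, 16 with no filter and 0 to 35 when 1 library was left out, and over all genes 1073 calls became 0 to 1867. With the replicate block, 15 were called against SPI-77 and 0 against SPI-24, and Syp (log2 difference 0.88) and Fbxl16 (-0.91) fell below 2-fold. The labels give a number only, and deviations of the 10 same-number pairs correlated from -0.16 to 0.21, above 0.1 in 5, so the libraries were not taken as pairs. The causes of these changes were not tested. Genes near a mean of 50 are limited by depth, with a median counting SD of 0.17 at a mean of 50 to 100.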
